A study of Mus musculus with 50 samples.

Results

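The constitutive androstane receptor (CAR, gene Nr1i3), the pregnane X receptor (PXR, gene Nr1i2) and 7 cytochrome P450 genes listed with them as targets were described in maternal and fetal mouse liver. Members were taken by symbol from the platform annotation, with the brightest probe where a gene had several. Of 10 listed genes, 9 were measured, each by 1 probe set, out of 30743 named genes on the array. Por, which encodes the P450 reductase, was not matched to a probe and is not analysed here.

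CAR and PXR are nuclear receptors that sense foreign chemicals, bile acids and steroids. Each binds DNA together with the retinoid X receptor, at pairs of a short half-site, and raises transcription of drug-metabolising enzymes. CAR is held in the hepatocyte cytoplasm until it is activated, whereas PXR responds mainly to ligand. Cyp2b10 is the standard mouse readout of CAR and Cyp3a11 that of PXR, although each receptor can act on both genes, and the Cyp3a enzymes are expressed by hepatocytes in a programme that changes around birth.

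Total RNA was measured on Affymetrix whole-transcript arrays in livers collected on gestational day 17.5 from outbred CD-1 dams and their fetuses. The dams were gavaged daily with vehicle, with PFOA (perfluorooctanoic acid, doses of 1 and 5 mg/kg/day) or with GenX (hexafluoropropylene oxide dimer acid, doses of 2 and 10 mg/kg/day), and the 10 groups are called maternal or fetal control, PFOA1, PFOA5, GenX2 and GenX10. Each group held 5 arrays except fetal PFOA5 with 6 and fetal GenX10 with 4. Fetuses were exposed only through the dam, were described as female, and matched the dams without the pairs being named, so tissues were compared as independent arrays. The study asked how gestational exposure to either compound changed liver expression in mother and fetus. Because PFOA and GenX were given at different doses, their values stand side by side and the compounds were not compared.

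For 2 fetal arrays the labels disagreed. The source name gives GenX2 for replicate 6 of the PFOA5 fetuses and GenX10 for replicate 5 of the GenX2 fetuses, and the titles were followed. Xist, which coats the inactive X chromosome of females, was at 4.50 to 5.39 on replicate 3 of the fetal controls and replicate 2 of the GenX2 fetuses, against 10.52 to 11.48 on the other 23 fetal arrays. Values are log2 signals, in which 1 unit is a doubling. The 95th percentile of the negative control probes lay between 7.37 and 8.18 per array, and 4393 to 7488 genes per array were above it. A gene that exceeded this percentile on none of a group's arrays was not well above background in that group and is called dim there. Maternal livers carried the hepatocyte markers (7 of 10 listed measured, none dim), and fetal livers carried them together with fetal hepatocyte, erythroid and granulocyte markers.

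The 6-base half-sites AGGTCA and AGTTCA, which nuclear receptors of this class recognise in pairs, were searched on both strands in RefSeq sequence (GRCm38.p6), in the 143 bases that begin 250 bases before the annotated start of each member. That start is the one of the RefSeq window, and all distances are counted from it. It is the outer end of the gene span printed in this report only for Cyp2b10 and Cyp3a11. For the other measured members it lies inside that span. The stretch is shown for the 3 Cyp2b genes and for Cyp3a11 and Cyp3a25, to set the Cyp2b cluster beside the Cyp3a genes that held a match, with half-site matches in capitals. For Cyp3a25, which has 2 annotated starts, the first listed was used.

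Cyp2b10, chr7:25897408-25897550, plus strand: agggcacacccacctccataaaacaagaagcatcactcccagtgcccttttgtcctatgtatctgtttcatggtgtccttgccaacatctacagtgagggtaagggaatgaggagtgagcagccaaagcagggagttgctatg

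Cyp2b9, chr7:26173159-26173301, plus strand: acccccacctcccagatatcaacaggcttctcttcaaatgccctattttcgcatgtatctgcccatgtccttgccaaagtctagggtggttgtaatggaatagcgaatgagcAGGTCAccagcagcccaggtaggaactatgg

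Cyp2b13, chr7:26061245-26061387, plus strand: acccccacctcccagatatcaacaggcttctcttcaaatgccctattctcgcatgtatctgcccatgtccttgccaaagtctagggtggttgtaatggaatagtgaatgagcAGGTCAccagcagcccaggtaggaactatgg

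Cyp3a11, chr5:145879962-145880104, minus strand: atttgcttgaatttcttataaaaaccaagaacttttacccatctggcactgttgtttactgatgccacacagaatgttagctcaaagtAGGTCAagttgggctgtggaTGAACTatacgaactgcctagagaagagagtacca

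Cyp3a25, chr5:146009726-146009868, minus strand: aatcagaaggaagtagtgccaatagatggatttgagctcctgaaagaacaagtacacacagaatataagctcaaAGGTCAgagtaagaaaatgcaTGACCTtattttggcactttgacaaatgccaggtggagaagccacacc

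Cyp2b9 and Cyp2b13 differed at 2 of the 143 positions (98.6% identical) and shared AGGTCA on the plus strand, 138 to 133 bases before the start. Cyp2b10 was 66.7% identical to either over 153 aligned columns and had no match. Cyp3a11 held AGGTCA at 162 to 157 bases and, on the opposite strand, AGTTCA at 142 to 137 bases before the start. Cyp3a25 held AGGTCA on both strands, at 176 to 171 and at 155 to 150 bases. Nr1i2, Nr1i3, Cyp2c55 and Cyp3a13 had no match in this stretch. The Cyp3a13 stretch (chr5:137921727-137921869, minus strand) lies within its gene span of 137892933 to 137925610, so sequence upstream of that span was not searched. Of 32851 RefSeq windows of the same 143 bases, 15.1% held either half-site (8.14% AGGTCA and 7.56% AGTTCA). A match is a description of letters, and the distal enhancers of these genes lie outside the stretch. The Cyp2b genes lie in 1 cluster on chromosome 7 (Cyp2b10 at 25897658 to 25926624, Cyp2b13 at 26061388 to 26096197, Cyp2b9 at 26173350 to 26210661), and whether the array's probe sets separate the transcripts of Cyp2b9 and Cyp2b13 was not tested.

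**Figure D1:**
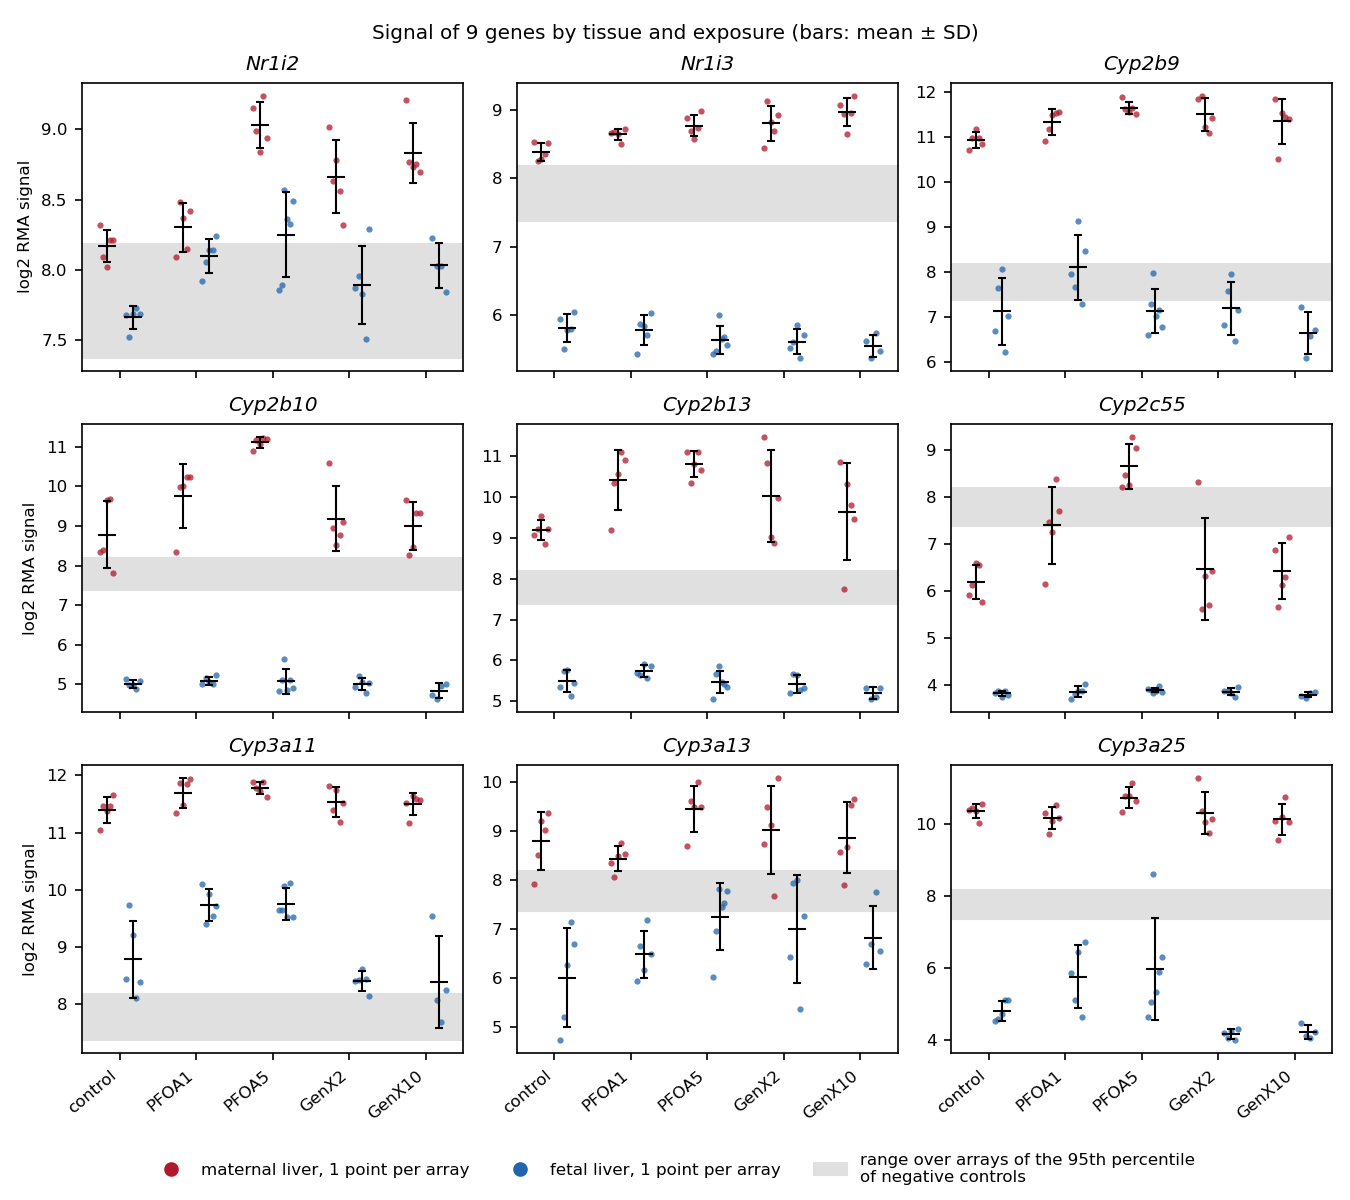
Log2 RMA signal (y axis) of the 9 genes in each of the 10 groups (x axis), with 1 point per array, maternal in red and fetal in blue; black bars give the mean ± SD of 4 to 6 arrays and the grey band spans the arrays' 95th percentile of negative controls. Maternal Cyp2b10 in PFOA5 sits between 10.89 and 11.23, above every other maternal group, whereas fetal Cyp2b10, Cyp2b13, Cyp2c55 and Nr1i3 lie below the band in all groups.

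Maternal PFOA5 was the exposure that moved the most members. There 7 of 9 rose (both receptors, the 4 Cyp2 genes and Cyp3a11) and none fell, beside 19.9% of all genes called (10.8% higher). None was called by limma in maternal PFOA1, where 0.0325% of genes were. There 6 of 9 members had an unadjusted p under 0.05, beside 1532 of the 30743 genes. In GenX2 the 2 receptor genes rose, beside 3.37% of genes called (2.43% higher), and in GenX10 both rose again, beside 13.8% (7.55% higher). Between the PFOA doses 3 members were higher in PFOA5 (Nr1i2, by 0.73 ± 0.11, Cyp2b10 and Cyp2c55), beside 18.7% of genes (10.2% higher). With dim genes left out, or with only the groups compared in the fit, the count was 5, and without PFOA1 replicate 1 it was 1, Nr1i2. Between the GenX doses limma called none of the members, beside 0.237% of all genes called. At an unadjusted p under 0.05 there were 0 members and 2462 of the 30743 genes. The members' differences ran from -0.40 to 0.17. The median difference over the members was 0.29 in PFOA1, 0.71 in PFOA5, 0.40 in GenX2 and 0.23 in GenX10, against 0, -0.05, -0.03 and -0.05 over all genes. Groups did not overlap for 0 members in PFOA1 (0.722% of all genes), for 6 in PFOA5 (15.4%), for 1 in GenX2 (3.86%), for 2 in GenX10 (12.6%) and for 2 between the PFOA doses (14.2%).

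The receptor genes rose in maternal liver under 3 of the 4 exposures. Nr1i2, on chromosome 16 at 38248349 to 38294849, read 8.32, 8.09, 8.02, 8.21 and 8.21 in the 5 control dams. In PFOA5 dams it read 9.15, 8.99, 8.84, 9.24 and 8.94. All 5 PFOA5 arrays lay above all 5 controls. Nr1i2 rose by 0.86 ± 0.11 (log2 difference ± standard error, 1.82-fold, limma adjusted p = 5.96e-06). The GenX2 dams read 9.02, 8.63, 8.78, 8.56 and 8.32, of which the lowest equalled the highest control at 2 decimals without overlapping it. The GenX10 dams read 9.21, 8.77, 8.73, 8.75 and 8.70, all above the controls. The rise was 0.49 ± 0.11 in GenX2 (1.41-fold, limma adjusted p = 0.0126) and 0.67 ± 0.11 in GenX10 (1.59-fold, limma adjusted p = 0.000256). Without GenX2 replicate 1, the highest array of its group, the GenX2 difference was 0.41 and missed the threshold (adjusted p = 0.052). PFOA1 dams, at 8.09, 8.48, 8.37, 8.15 and 8.42, overlapped the controls, with a difference of 0.13 (95% interval -0.10 to 0.37).

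Nr1i3, which encodes CAR and lies on chromosome 1 at 171213934 to 171218845, read 8.53, 8.25, 8.29, 8.35 and 8.52 in control dams. PFOA5 dams read 8.88, 8.69, 8.58, 8.73 and 8.98, and GenX10 dams 9.07, 8.94, 8.65, 8.96 and 9.21. Neither group overlapped the controls. Nr1i3 rose by 0.39 ± 0.11 in PFOA5 (1.31-fold, limma adjusted p = 0.0116) and by 0.58 ± 0.11 in GenX10 (1.49-fold, limma adjusted p = 0.000543). GenX2 dams read 8.45, 9.13, 8.82, 8.70 and 8.92, of which the first fell inside the control range. The GenX2 rise of 0.42 ± 0.11 (1.34-fold, limma adjusted p = 0.0251) was lost when any of 6 single arrays was left out (adjusted p from 0.0547 to 0.0928) and when only the groups compared were fitted (adjusted p = 0.0854). In PFOA1 Nr1i3 differed by 0.26 (interval 0.04 to 0.48, adjusted p = 0.919). For both receptor genes the mean lay above the control mean in every exposed maternal group, and adjacent maternal groups in the order of means overlapped.

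All 4 Cyp2 members rose in PFOA5 dams, and none was called in PFOA1, GenX2 or GenX10. Cyp2b10, the phenobarbital-inducible P450, varied widely among control dams, at 8.33, 8.40, 9.66, 9.69 and 7.82. In PFOA1 it read 8.34, 9.99, 10.00, 10.23 and 10.23, and in PFOA5 10.89, 11.18, 11.07, 11.23 and 11.19. The 4 higher PFOA1 arrays exceeded every control, replicate 1 did not, and the PFOA5 arrays exceeded all arrays of both groups. The spread among arrays was 0.85 (SD) in controls, 0.80 in PFOA1 and 0.14 in PFOA5. Cyp2b10 rose 5.03-fold in PFOA5 against control (limma adjusted p = 0.000174) and by 1.35 ± 0.40 (2.56-fold, limma adjusted p = 0.0217) in PFOA5 against PFOA1. That dose difference was 1.00 (adjusted p = 0.0674) without PFOA1 replicate 1. PFOA1 against control was 0.98 (interval 0.15 to 1.8, adjusted p = 0.922), and 1.33 (adjusted p = 0.193) without that array.

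Under GenX the Cyp2b10 arrays overlapped the controls. GenX2 dams read 10.59, 8.96, 8.52, 8.76 and 9.09, and GenX10 dams 9.65, 8.27, 8.46, 9.33 and 9.32. Replicate 1 of GenX2 stood above the rest of its group and above all controls. The differences from control were 0.40 (interval -0.43 to 1.23) in GenX2 and 0.23 (interval -0.60 to 1.05) in GenX10. Without replicate 1 the GenX2 difference was 0.05.

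Cyp2c55, a P450 of arachidonic acid metabolism that CAR and PXR activators induce, lies on chromosome 19 at 39006940 to 39042690 and was dim in control dams at 5.91, 6.13, 6.59, 6.55 and 5.77. In PFOA1 it read 6.15, 7.47, 7.26, 8.39 and 7.71, and in PFOA5 8.21, 8.47, 8.25, 9.28 and 9.04. Replicate 1 of PFOA1 again lay inside the control range, and all PFOA5 arrays lay above the controls. Against control, the PFOA5 signal was at least 2.05-fold higher, with the dim arrays set at their background percentile (limma adjusted p = 0.000137). PFOA5 exceeded PFOA1 by 1.25 ± 0.41 on the log2 scale (limma adjusted p = 0.0375), with no fold given because only 2 of the 5 PFOA1 arrays were above background. This dose difference missed the threshold when any of 6 single arrays of these groups was left out, with the smallest value 0.94 (adjusted p = 0.109) without PFOA1 replicate 1. GenX2 dams read 8.31, 5.62, 6.32, 5.70 and 6.43, in which replicate 1, the array with the high Cyp2b10, was the high one again. It was the only GenX2 array above background, and without it the GenX2 difference of 0.29 became -0.17. GenX10 dams were dim, at 6.88, 5.65, 6.12, 6.30 and 7.15.

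Cyp2b13 and Cyp2b9 encode female-predominant P450s of the same cluster. Cyp2b13 read 9.07, 9.23, 9.53, 8.86 and 9.23 in control dams, 9.20, 10.35, 10.56, 11.11 and 10.90 in PFOA1, and 11.11, 10.34, 10.81, 11.11 and 10.67 in PFOA5. PFOA5 did not overlap the controls, and the rise was 1.62 ± 0.48 (3.08-fold, limma adjusted p = 0.0183). PFOA1 arrays other than replicate 1 lay above the controls, yet the difference of 1.24 ± 0.48 was not called (adjusted p = 0.859, and 0.270 at a difference of 1.55 without replicate 1). The GenX groups were the most spread. GenX2 dams read 11.48, 10.83, 9.03, 8.87 and 9.98 (SD 1.13), and GenX10 dams 10.86, 7.74, 10.33, 9.82 and 9.47 (SD 1.19). The lowest GenX10 array lay below all controls and the highest above them.

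Cyp2b9 was bright in control dams at 10.71, 10.99, 11.18, 10.98 and 10.85. It reached 11.89, 11.64, 11.56, 11.66 and 11.52 in PFOA5, all above the controls, a rise of 0.71 ± 0.19 (1.64-fold, limma adjusted p = 0.00875). Its differences in PFOA1, GenX2 and GenX10 were 0.41, 0.57 and 0.41 and were not called. Leaving out 1 array brought a call in GenX2 (0.67 without replicate 4, adjusted p = 0.0351) and in GenX10 (0.62 without replicate 2, adjusted p = 0.0102). In GenX10 replicate 2 Cyp2b9 was 10.52, Cyp2b13 was 7.74 and Cyp2b10 was 8.27, each the lowest of its group. The same array was the lowest of its group for the other P450 members as well (Cyp2c55 at 5.65, Cyp3a11 at 11.17, Cyp3a13 at 7.89 and Cyp3a25 at 9.58), but not for Nr1i2 (8.77) or Nr1i3 (8.94).

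Of the Cyp3a genes, on chromosome 5 (Cyp3a11 at 145854607 to 145879854, Cyp3a25 at 145977192 to 146009644, Cyp3a13 at 137892933 to 137925610), only Cyp3a11 was called against control in maternal liver, and only in PFOA5. Cyp3a11, an abundant drug-oxidising P450, read 11.04, 11.47, 11.38, 11.46 and 11.66 in control dams and 11.88, 11.77, 11.73, 11.88 and 11.63 in PFOA5. The lowest PFOA5 array lay under the highest control. The rise of 0.38 ± 0.13 (1.30-fold, limma adjusted p = 0.041) was lost when any of 7 single arrays was left out, with the largest adjusted p 0.119 without control replicate 1, and it was lost with an intensity trend in the prior variance (adjusted p = 0.0503). Cyp3a13 and Cyp3a25 were not called in any maternal exposure, with differences from -0.37 to 0.65 and from -0.24 to 0.37. Between the PFOA doses Cyp3a13 differed by 1.02 ± 0.36 (adjusted p = 0.0513) and Cyp3a25 by 0.57 ± 0.22 (adjusted p = 0.0733). Both calls appeared when dim genes were left out (adjusted p = 0.0288 and 0.0448), and when only the groups compared were fitted (adjusted p = 0.0061 and 0.0331).

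**Figure D2:**
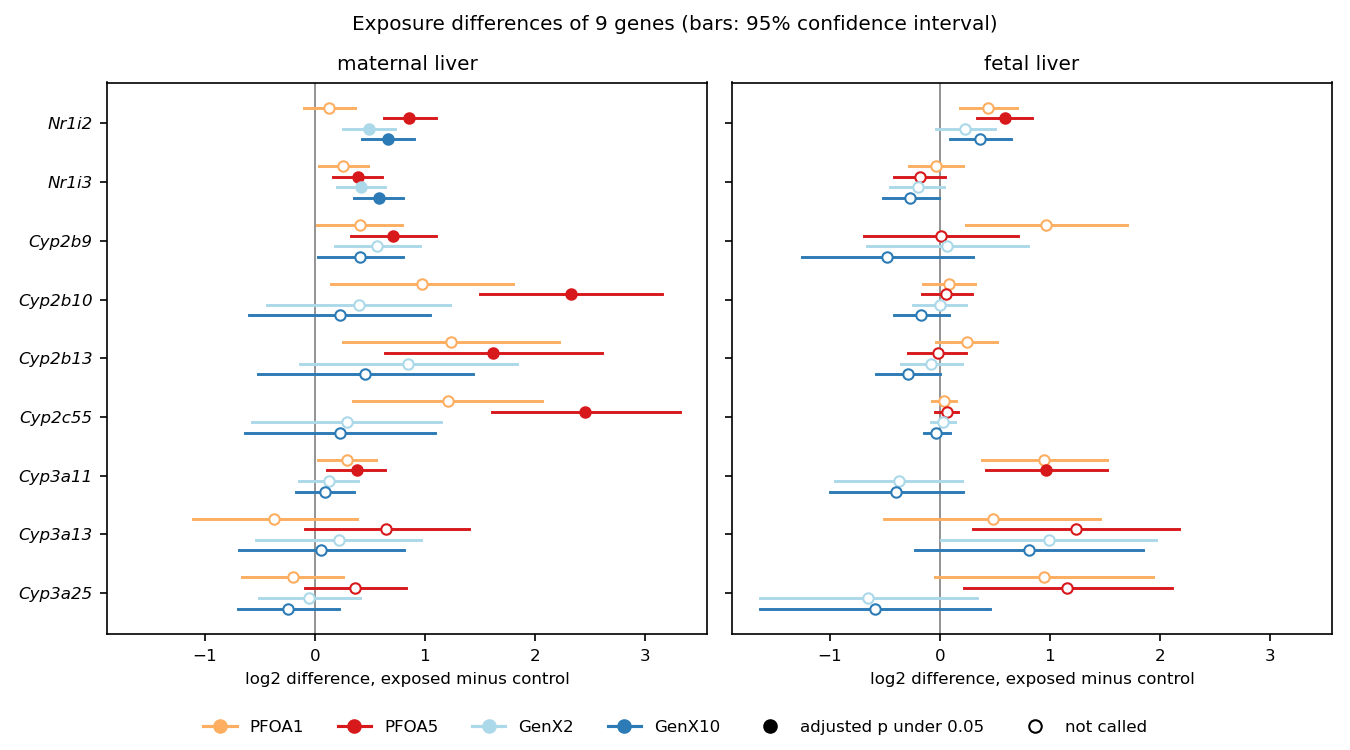
Log2 difference from the control group of the same tissue (x axis) for the 9 genes (y axis), with 1 colour per exposure, bars for the 95% confidence interval and filled points for an adjusted p under 0.05. The maternal Cyp2b10 and Cyp2c55 points of PFOA5 lie at 2.33 and 2.46 (Cyp2c55 was dim in maternal controls), with fetal points of the same genes, dim in all groups, between -0.17 and 0.08.

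In fetal liver the members started lower. In unexposed animals 9 of 9 members were lower in fetal than in maternal liver, beside 62.2% of genes called (42.2% lower). The groups did not overlap for any of the 9, beside 40.6% of all genes. Cyp3a11 was 8.79 ± 0.67 (SD, n = 5) in fetal and 11.40 ± 0.23 in maternal controls, 6.13-fold lower. Cyp2b9 was 7.13 ± 0.74 and 10.94 ± 0.17, and no fold is given because only 1 of the 5 fetal control arrays was above background. Cyp3a25, a major Cyp3a of adult mouse liver, was dim in fetal controls at 4.53, 4.59, 4.73, 5.12 and 5.11 and was at least 5.59-fold lower. The other bounds were at least 2.45-fold for Cyp2b13, 1.87-fold for Cyp3a13, 1.85-fold for Cyp2b10, 1.41-fold for Nr1i3 and 1.21-fold for Nr1i2. Cyp2c55 was dim in both tissues and has no fold. The limma adjusted p ran from 2.46e-23 for Nr1i3 to 0.000591 for Nr1i2.

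Markers of several cell types differed between the tissues too. Erythroid markers were higher in fetal controls for 8 of 8 measured, with a mean log2 signal over the list of 9.65 to 10.01 per fetal array and 6.34 to 6.54 per maternal array. In maternal controls 7 of the 8 were dim, among them Klf1, Gata1 and Slc4a1, and Gata1 was dim in fetal controls too. Granulocyte markers were higher for 8 of 8 (8.97 to 9.22 against 5.73 to 5.99), with all 8 dim in maternal controls. Of these, Elane, Prtn3 and Ctsg were dim in fetal controls too. Hepatocyte markers were lower for 5 of 7 (10.86 to 11.00 against 12.13 to 12.20), and of these Tat was dim in fetal controls. Fetal hepatocyte markers were higher for 4 of 4 (11.10 to 11.23 against 6.78 to 7.10), and macrophage and Kupffer cell markers were higher for 6 and lower for 2 of 8. The part of cell makeup in the members' difference was not tested, and in whole tissue fewer cells of a type and less RNA per cell cannot be told apart.

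In exposed fetuses 2 members rose with PFOA5, Nr1i2 and Cyp3a11, beside 3.39% of all genes called (2.34% higher), and in several alternatives only Nr1i2 did. Limma called none in fetal PFOA1 (0.953% of all genes called), GenX2 (6.73%) or GenX10 (9.27%). An unadjusted p under 0.05 was found for 3 members in PFOA1, 1 in GenX2 and 2 in GenX10. Of the 30743 genes, 2392, 6128 and 8291 had one in these groups, in the same order. Groups did not overlap for 1 member in PFOA1 (2.22% of all genes), 1 in PFOA5 (3.21%), 1 in GenX2 (6.49%) and 2 in GenX10 (10.6%).

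Fetal Nr1i2 was dim in controls, at 7.68, 7.52, 7.69, 7.73 and 7.69. In fetal PFOA5 its signal ran from 7.86 to 8.57 with a median of 8.34, above every control. It rose by 0.59 ± 0.12 (at least 1.28-fold, limma adjusted p = 0.00447), and by 0.54 (adjusted p = 0.0069) with the 2 arrays of disputed label left out. In fetal PFOA1 it read 7.92, 8.06, 8.14, 8.14 and 8.24, also above every control, but the difference of 0.44 ± 0.13 was not called (adjusted p = 0.132). It was called when only those groups were fitted (adjusted p = 0.00695). GenX10 fetuses read 8.23, 8.03, 8.03 and 7.84, again without overlap, with a difference of 0.37 ± 0.14 (adjusted p = 0.0838) that passed when dim genes were left out (adjusted p = 0.0497), with only the groups compared (adjusted p = 0.0212) and with arrays centred on their medians (0.45, adjusted p = 0.027). GenX2 fetuses read 7.87, 7.96, 7.83, 7.51 and 8.29 and overlapped the controls, and the highest of them is an array of disputed label.

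Cyp3a11 was the P450 member that was above background on at least 1 array of every fetal group and rose in PFOA5. It read 8.45, 9.74, 9.22, 8.12 and 8.40 in controls, 10.10, 9.40, 9.92, 9.54 and 9.71 in PFOA1, and 9.52 to 10.12 (median 9.65) in PFOA5. Control replicates 2 and 3 stood above the other controls, and only replicate 2 reached into the PFOA ranges. Cyp3a11 rose by 0.97 ± 0.27 in PFOA5 (1.96-fold, limma adjusted p = 0.0405). The call was lost in 9 fits that each left out 1 array (adjusted p up to 0.138), with the 2 arrays of disputed label left out (1.02, adjusted p = 0.0558) and with their source names followed (1.02, adjusted p = 0.0708). PFOA1 differed by nearly the same amount, 0.95 ± 0.28 (interval 0.38 to 1.52, adjusted p = 0.137), and passed without control replicate 2 (1.19, adjusted p = 0.0242).

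Under GenX fetal Cyp3a11 lay at the low end. GenX2 fetuses read 8.41, 8.43, 8.62, 8.44 and 8.15, and GenX10 fetuses 9.55, 8.07, 7.69 and 8.26. All but the first GenX10 array lay under control replicates 2 and 3. The differences were -0.37 (interval -0.95 to 0.20) and -0.40 (interval -1.0 to 0.21), and neither was called. Hepatocyte markers fell in 3 of 7 in GenX2 and 2 of 7 in GenX10 fetuses, beside 6.73% and 9.27% of all genes called either way. The mean log2 signal of these markers was 10.34 to 10.69 and 10.59 to 10.74 per array, against 10.86 to 11.00 in controls. The part of the markers' cells in the Cyp3a11 values was not tested.

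Fetal Cyp3a25 was dim except on 1 array. It read 5.87, 5.13, 6.46, 4.64 and 6.73 in PFOA1 and from 4.65 to 8.62 in PFOA5, where replicate 3 was the highest. The same array had the highest hepatocyte marker mean of all fetal arrays, 11.53 against 10.34 to 11.10, and the PFOA5 difference of 1.16 (adjusted p = 0.229) was 0.64 without it. In GenX2 Cyp3a25 read 4.21, 4.06, 4.27, 4.00 and 4.30, and in GenX10 4.49, 4.12, 4.07 and 4.22. Both groups lay below every control without overlap, but all these arrays were dim and neither difference was called (-0.65 and -0.59, adjusted p = 0.464 and 0.459). Both were called when only the groups compared were fitted (adjusted p = 0.0106 and 0.0341). Cyp3a13 was dim in fetal controls, PFOA1 and GenX10, and its differences of 0.48 to 1.24 were not called in any exposure. It was above background on 1 of 6 PFOA5 and 2 of 5 GenX2 arrays.

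The Cyp2 members gave no called fetal change. Cyp2b10, Cyp2b13 and Cyp2c55 were dim in all 5 fetal groups, with means of 4.84 to 5.09, 5.20 to 5.74 and 3.80 to 3.89, so a change below background was not detectable here. Nr1i3 was dim in all fetal groups as well, with means of 5.55 to 5.82. Fetal Cyp2b9 was above background on 1 of 5 control, 3 of 5 PFOA1 and 1 of 6 PFOA5 arrays. It read 6.69, 7.65, 8.08, 6.22 and 7.04 in controls and 7.96, 7.68, 9.14, 7.30 and 8.47 in PFOA1, with a difference of 0.97 ± 0.35 (adjusted p = 0.349). In PFOA5 it ran from 6.60 to 7.99 and differed by 0.01 (interval -0.69 to 0.71).

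Between the fetal doses limma called none, beside 0.0488% of genes called for PFOA and 0% for GenX. For PFOA, 2 members and 2623 of the 30743 genes had an unadjusted p under 0.05. For GenX no member and 619 genes did. The ranges of the doses overlapped for all 9 members, with 0.794% of all genes not overlapping for PFOA and 0.615% for GenX.

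Whether an exposure acted unequally on dam and fetus was tested as an interaction. For PFOA5, 4 members had a lower effect in fetal than in maternal liver, beside 4.48% of genes called either way and 2.71% lower. Cyp2b10 differed by -2.26 ± 0.43 (limma adjusted p = 0.000417) and Cyp2c55 by -2.39 ± 0.43 (adjusted p = 0.000194). Nr1i3 differed by -0.57 ± 0.16 (adjusted p = 0.0258) and Cyp2b13 by -1.64 ± 0.50 (adjusted p = 0.0492). The Cyp2b13 call was lost in 5 alternatives (adjusted p up to 0.101) and without most single arrays (adjusted p up to 0.0948), and that of Nr1i3 without any of 4 arrays, namely maternal control 2, maternal PFOA5 5 and fetal controls 1 and 5 (adjusted p up to 0.0604). Nr1i3 also differed for GenX2 (-0.62 ± 0.16, adjusted p = 0.0391, beside 1.28% of genes and 0.667% lower) and for GenX10 (-0.85 ± 0.17, adjusted p = 0.00152, beside 2.04% of genes and 1.3% lower). The GenX2 value was -0.63 (adjusted p = 0.0767) without the 2 arrays of low Xist, and was lost without many single arrays (-0.54, adjusted p = 0.105, without maternal GenX2 replicate 2). For PFOA1 none was called, beside 0.179% of genes. An unadjusted p under 0.05 was found there for 4 members and for 1550 of the 30743 genes. In all the called cases the fetal signals were dim in exposed and control fetuses, so these tests could not see a fetal change below background. Cyp2c55 was dim in maternal controls too. For Nr1i2 and Cyp3a11, the members called in fetal PFOA5, the PFOA5 effect was not called as differing between tissues.

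The other genes of the pathway moved in both directions in maternal liver. Of 15 measured P450 genes also reported as CAR or PXR targets, 2 rose and 4 fell in maternal PFOA5, and 0 rose and 5 fell in GenX10. The shares of all genes called in either direction, beside which these and the following counts stand, were 19.9% in PFOA5, 3.37% in GenX2 and 13.8% in GenX10. Cyp2c38 fell by 1.24 and Cyp2c39 by 0.68 in PFOA5 (limma adjusted p = 1.96e-05 and 0.00012), and Cyp2b23 rose by 0.99 while dim in both groups. In GenX10 Cyp1a2, the caffeine-oxidising P450, fell by 0.56, Cyp2c37 fell by 0.93 and Cyp2c54 fell by 1.01. Of 18 conjugation and other enzymes, 4 rose and 4 fell in PFOA5, 2 rose in GenX2, and 3 rose and 1 fell in GenX10. Ephx1, the microsomal epoxide hydrolase, rose in all 3 groups (by 1.41, 0.78 and 1.16), as did Aldh1a1, which oxidises retinal (by 0.77, 0.41 and 0.58).

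Of 9 transporters, 5 rose and 2 fell in maternal PFOA5, 4 rose in GenX2, and 5 rose and 2 fell in GenX10. The efflux pumps Abcc3, Abcc4 and Abcg2 were dim in controls. In PFOA5 Abcc3 was at least 7.15-fold, Abcc4 at least 5.92-fold and Abcg2 at least 2.10-fold higher. In GenX10 the bounds were 4.49-fold, 2.60-fold and 1.67-fold. Of 11 genes for P450 electron donors and haem supply, 6 rose and 1 fell in PFOA5, 3 rose in GenX2 and 5 rose in GenX10. Alas1, the rate-limiting enzyme of haem synthesis, rose by 1.68, 0.65 and 1.32. Of 15 partners and regulators, 3 rose and 2 fell in PFOA5, 1 rose in GenX2, and 5 rose and 2 fell in GenX10. The gene called in GenX2 was Ppara, a nuclear receptor of fatty acid oxidation, which rose by 0.67 there and by 0.57 in GenX10. Macrophage and Kupffer cell markers rose for 4 of 8 in PFOA5 and 2 of 8 in GenX10 (mean log2 signal 7.0 to 7.99 and 7.31 to 7.97 per array, controls 6.81 to 7.60, with Adgre1 and Timd4 dim), and their part was not tested. In PFOA1 none of these lists had a called member by limma. The lists' median differences in PFOA5 were 0.24 for the other P450 genes, 0.16 for conjugation and other enzymes, 0.81 for transporters, 0.04 for partners and 0.29 for electron donors and haem supply, beside -0.05 over all genes. In GenX10 they were -0.32, 0.11, 0.47, 0.05 and 0.31 in the same order, again beside -0.05.

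In fetal liver the shares of all genes called were 0.953% in PFOA1, 3.39% in PFOA5, 6.73% in GenX2 and 9.27% in GenX10. Of the 18 conjugation and other enzymes, 3 rose in PFOA1, 5 rose and 1 fell in PFOA5, 4 rose and 3 fell in GenX2, and 5 rose and 3 fell in GenX10. Ephx1 rose by 1.48, 1.99, 1.86 and 1.85 in these groups (limma adjusted p from 1.34e-07 to 6.75e-05). Aldh1a1 was called higher in all 4 (limma adjusted p from 4.67e-05 to 0.0381), but it was dim in fetal controls and in GenX10 fetuses, and no fold is given. The Aldh1a7 rise in PFOA5 was at least 1.64-fold. Of the other P450 genes, Cyp3a44, another Cyp3a, rose by 1.53 ± 0.40 in PFOA5 (adjusted p = 0.0309), 1 fell in each of PFOA5, GenX2 and GenX10 (Cyp2a4, dim in these groups), and none was called in PFOA1. The electron donor and haem list had 2 genes higher in PFOA5, 3 in GenX2 and 3 in GenX10, the transporters 2, 1 and 3, and the partners 1, 1 and 2, with none lower. Several of these were dim in both groups, namely the transporter Abcb1a in all 3 exposures, which was the only transporter called in GenX2, and the coactivator Ncoa1 in PFOA5, the only partner called there, and in GenX10. Abcc3 and Abcc4, raised in dams, were dim in fetal controls, and in fetal PFOA5 Abcc4 was dim and Abcc3 was above background on 1 of 6 arrays. The lists' median differences in fetal PFOA5 lay between -0.01 and 0.11, beside -0.01 over all genes.

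**Figure D3:**
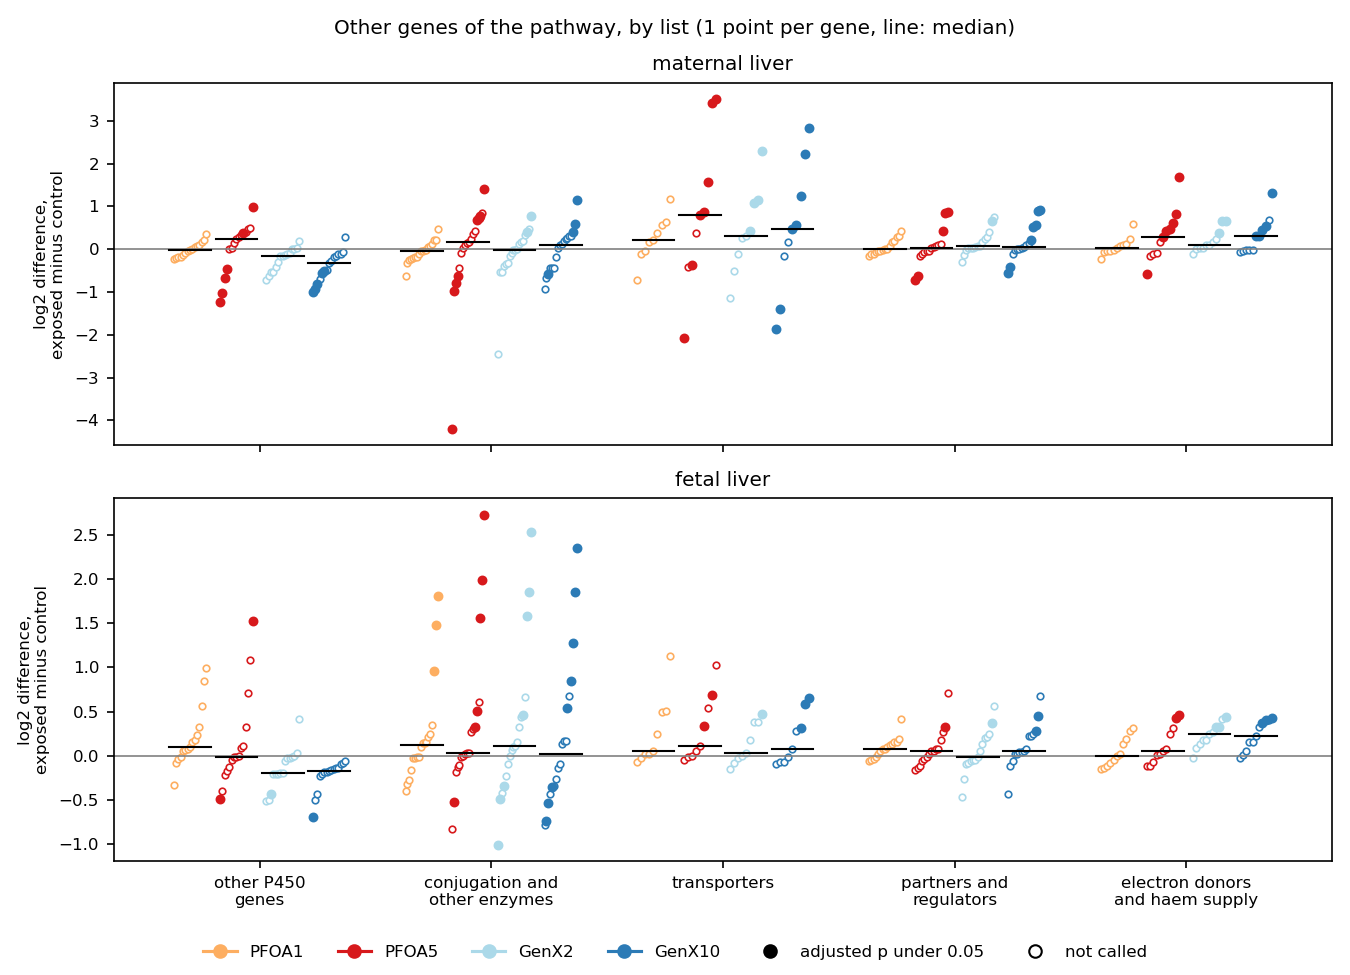
Log2 difference from control (y axis) of the other pathway genes, grouped in 5 lists (x axis), with 1 point per gene, filled where the adjusted p was under 0.05, and a black line at each list's median; maternal liver above and fetal liver below, on separate scales. The highest maternal points are Abcc3 and Abcc4 in PFOA5, at least 7.15-fold and 5.92-fold above controls in which both were dim, and in fetal liver Ephx1 is filled in all 4 exposures.

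Genes whose signal followed a member most closely were ranked by Pearson r over the 25 arrays of a tissue, among genes above background on at least 5 of them. These arrays share groups and doses, so r describes the pattern only. In maternal liver Cyp2b10 was followed by Cyp2c55 (0.94), Ctsl (0.85) and Ces2d-ps (0.82). Maternal Nr1i3 was followed by Fads2 (0.82), Slc16a13 (0.82) and E2f8 (0.81), and maternal Cyp3a11 by Slc35d2 (0.81), Ppp1ccb (0.78) and Gm11893 (0.78). In fetal liver Cyp3a11 was followed by Cyp3a16 (0.92), Cyp2a22 (0.81) and Cyp2d10 (0.77). Whether the array's probe sets separate the transcripts of Cyp3a11, Cyp3a16 and Cyp3a44 was not tested. Fetal Nr1i3 and Cyp2b10 were dim on all arrays and are not ranked here.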

How the data were processed

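Total RNA of 25 maternal and 25 fetal livers was hybridised to Affymetrix whole-transcript arrays, per the labels' protocols. The deposited table holds the authors' log2 values, for which the submitters' processing notes name RMA and mm10 and do not say whether arrays were run as 1 set. RMA subtracts background, equalises the arrays' distributions and pools the probes of a set, so a shift of most genes one way would be partly removed and bright or dim signals are compressed. Of 72688 features, 5222 are negative controls. Probes with 1 symbol (30604) or several symbols of 1 gene (612) were kept and those of several genes (1534) left out, which gave 30743 genes, with the brightest probe for the 364 genes that had several.

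Arrays were grouped by title. The tests used limma 3.58.1 (lmFit, then eBayes; R 4.3.3), all 5 groups of a tissue entering together, or all 10 groups where tissues were compared, and a gene was called at a two-sided Benjamini-Hochberg adjusted p under 0.05 over all genes. Python 3.11.15 with pandas 2.3.3, numpy 2.4.6 and matplotlib 3.10.9, Biopython 1.88 and the R package data.table (version 1.17.8) handled data, figures and alignments. The procedure was tested on simulated data. The labels do not say whether replicate numbers pair arrays. Same-numbered arrays had median correlations of their deviations of -0.03 in either tissue and -0.07 between dam and fetus. These values cannot settle the question for dam and fetus, because 2 tissues of a pair need not share deviations. Replicates correlated at 0.9861 to 0.9969 and none was a duplicate. The replicates are separate animals as far as the labels say. The number of arrays limits the precision.

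All measured members were tested in every comparison, and some comparisons give only their counts or ranges. Of each list of other pathway genes at most 3 called genes per comparison are named, those with the smallest adjusted p. Where a member was ranked, the 3 genes most correlated with Nr1i3, Cyp2b10 and Cyp3a11 are named too. The members and lists were chosen with earlier results of these data known. Counts of the marker lists of endothelial, stellate, bile duct and intestinal or pancreatic cells were also made: in maternal PFOA5 they had 1 of 6, 2 of 6 and 0 of 4 members lower and 1 of 6 higher, respectively. The share of all genes called there was 19.9%. Mean log2 signals of the intestinal and pancreatic list were 6.32 to 8.14 in fetal controls and 6.57 to 8.11 in fetal PFOA5. In maternal controls they were 7.06 to 7.35. For bile duct markers these ranges were 6.73 to 7.75, 6.90 to 8.02 and 6.96 to 7.06. The part of these cells in the members' fetal values was not tested. The alternatives tried were an intensity trend in the prior variance, leaving out dim genes, centring arrays on their medians, averaging probes, fitting only the groups compared, a block for the replicate number, other handling of the disputed and low-Xist arrays, and leaving out each array in turn.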

Additional observations from a re-analysis of the deposited data

Results flagged for a closer look

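Of 90 groups of members, 6 had an array set far apart from the rest of its group by Dixon's criterion. Chance alone sets about 1 in 20 groups apart, so this number is close to what chance gives. Nr1i2 was at 9.21 in maternal GenX10 replicate 1 (others 8.70 to 8.77) and at 7.52 in fetal control replicate 2 (others 7.68 to 7.73). Cyp2b10 was at 8.34 in maternal PFOA1 replicate 1 (others 9.99 to 10.23), at 10.59 in maternal GenX2 replicate 1 (others 8.52 to 9.09), and at 5.65, a dim signal, in fetal PFOA5 replicate 3 (others 4.84 to 5.10). Cyp3a11 was at 11.17 in maternal GenX10 replicate 2 (others 11.51 to 11.64). Exposure effects that differed between the tissues were those of PFOA5 for Cyp2b10 (-2.26, fetal minus maternal), Cyp2b13 (-1.64), Cyp2c55 (-2.39) and Nr1i3 (-0.57), and those of GenX2 (-0.62) and GenX10 (-0.85) for Nr1i3; in each of them the fetal signals were not well above background, and for Cyp2c55 those of maternal controls were not either.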

How the results depend on the processing

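Of 153 member differences, 31 were called. No called difference changed sign in any fit, 22 kept their call in every fit, 4 lost it only when 1 array was left out, and 5 lost it under another setting. Counts of called members moved as follows. In maternal PFOA5 the count was 6 with an intensity trend and with the replicate block, and 6 to 7 with 1 array left out. For the PFOA5 effect between tissues it was 3 with median centring, with the replicate block, with the disputed arrays left out or regrouped, and without the arrays of low Xist. With only the groups compared in the fit, the count became 1 in maternal GenX2, 1 in fetal PFOA1, 1 in fetal PFOA5, 1 in fetal GenX2, 2 in fetal GenX10, 5 in maternal PFOA5 against PFOA1 and 0 for the GenX2 effect between tissues. In fetal PFOA5 it was also 1 with median centring, with the replicate block, and with the disputed arrays left out or regrouped by source name. In fetal GenX10 it was 1 with dim genes left out or with median centring, in maternal PFOA5 against PFOA1 it was 5 with dim genes left out, and for the GenX2 effect it was 0 without the arrays of low Xist. With 1 array left out, counts ran from 1 to 3 in maternal GenX2, 2 to 3 in maternal GenX10, 0 to 1 in fetal PFOA1, 1 to 2 in fetal PFOA5, 1 to 4 in maternal PFOA5 against PFOA1, 2 to 4 for the PFOA5 effect and 0 to 1 for the GenX2 effect. The cause of these moves was not tested. Only leaving out dim genes, fitting only the groups compared and leaving out arrays hold fewer genes or arrays by construction.

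Whether the replicate numbers pair arrays is not known from the labels. With the replicate number as a block, Cyp3a11 lost its call in maternal PFOA5 (0.38, adjusted p = 0.0578) and fetal PFOA5 (1.02, adjusted p = 0.0652), Cyp2b13 lost its PFOA5 effect (-1.62, adjusted p = 0.0877) and Cyp3a13 gained a call between the maternal PFOA doses (1.02, adjusted p = 0.0353). The block changed no other call of a member. Signals at or below the negative controls limit what could be seen in fetal liver for Nr1i3, Cyp2b10, Cyp2b13 and Cyp2c55.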
